A study of Mus musculus with 3 samples.

Results

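The genes described here encode the inhibitory synapse of the spinal cord: the glycine receptor subunits Glra1, Glra2, Glra3 and Glrb, the scaffold gephyrin (Gphn), the glycine transporters Slc6a5 and Slc6a9, the vesicular transporter Slc32a1 and the GABA-synthesizing enzymes Gad1 and Gad2. Their rows were taken by gene symbol, and all 10 were found among the 31040 genes of the table, with 428588 of the 206486779 unique molecular identifiers (UMIs). Glycine and GABA are the fast inhibitory transmitters of the ventral horn, where interneurons release them, often together, onto motor neurons. Glycine opens a chloride channel built of alpha and beta subunits, and the beta subunit is held at the synapse by gephyrin. Inhibitory neurons take glycine up through the product of Slc6a5 (GlyT2), make GABA with the enzymes of Gad1 and Gad2, and fill vesicles with either transmitter through the product of Slc32a1 (VGAT), while glia clear glycine through the product of Slc6a9 (GlyT1).

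Single-nucleus RNA-seq was performed on frozen lumbar spinal cord of 12 mice at 90 days of age. SOD1G93A mice carried the B6.Cg-Tg(SOD1*G93A)1Gur/J transgene, a high-copy human SOD1 gene with the G93A change, and WT mice were C57BL/6J littermates without it. There were 3 female and 3 male mice of each genotype. Nuclei were marked with hashtag antibodies, and 1 mouse of each sex and genotype went into each of 3 pools, so that the mouse is the replicate and the pool is the batch. Per the study's supplement, every hashtag stood for 1 combination of sex and genotype, so hashtag and group cannot be told apart.

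The table held 14662 nuclei in 10 cell types as the authors assigned them, and neurons were divided further by layer and transmitter. The 9 sub-types were dorsal, mid and ventral excitatory (DE, ME, VE), dorsal, mid and ventral inhibitory (DI, MI, VI), ventral cholinergic neurons other than motor neurons (VC), ventral mixed (VM) and unclear neurons. Each mouse gave between 6411715 and 36668441 UMIs, and the pools shared 4 to 6 barcodes pairwise. Motor neurons were few, with 67 nuclei in all and 1 to 11 per mouse. The listed markers of 9 cell types, all but the Schwann and meningeal class, were highest in their own type. Sod1 was higher in SOD1G93A astrocytes by 2.31 on the log2 scale (SE 0.16, limma-voom adjusted p = 3.98e-07), with 58.5 to 279 UMIs per 1000000 of the library (CPM) in WT and 353 to 1362 CPM in SOD1G93A mice, ranges that did not overlap. In neurons it was higher by 1.29 on the log2 scale (SE 0.13, limma-voom adjusted p = 0.00246), with 28.6 to 84.9 CPM in WT and 63.4 to 230 CPM in SOD1G93A mice, ranges that did overlap.

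The promoters of Slc6a5, Slc32a1, Gad1 and Gad2 are shown because these 4 genes mark inhibitory neurons and their levels were correlated across types. Each window is the RefSeq sequence (GRCm38.p6) from 250 bases before to 50 bases after the start, on the plus strand. Capitals mark each match to CANNTG, the E-box bound by basic helix-loop-helix factors, which reads the same on both strands. The windows lie at chr7:49910049-49910348, chr2:158610508-158610807, chr2:70561879-70562178 and chr2:22622077-22622376, in the order printed.
Slc6a5: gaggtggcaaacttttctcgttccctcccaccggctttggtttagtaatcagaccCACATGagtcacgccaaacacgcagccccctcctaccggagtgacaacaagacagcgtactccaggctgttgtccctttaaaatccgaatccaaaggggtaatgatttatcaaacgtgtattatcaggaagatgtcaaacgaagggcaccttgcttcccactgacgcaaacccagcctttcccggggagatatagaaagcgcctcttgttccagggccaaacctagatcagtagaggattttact
Slc32a1: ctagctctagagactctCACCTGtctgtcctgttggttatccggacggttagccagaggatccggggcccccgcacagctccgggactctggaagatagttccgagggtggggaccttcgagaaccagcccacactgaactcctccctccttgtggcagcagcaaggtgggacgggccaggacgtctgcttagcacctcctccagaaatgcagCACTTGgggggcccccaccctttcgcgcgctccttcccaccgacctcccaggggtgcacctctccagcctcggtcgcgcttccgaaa
Gad1: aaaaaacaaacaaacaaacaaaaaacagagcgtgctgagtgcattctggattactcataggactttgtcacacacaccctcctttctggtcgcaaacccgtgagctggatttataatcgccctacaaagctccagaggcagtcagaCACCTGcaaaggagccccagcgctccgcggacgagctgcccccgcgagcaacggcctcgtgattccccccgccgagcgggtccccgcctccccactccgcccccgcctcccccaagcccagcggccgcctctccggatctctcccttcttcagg
Gad2: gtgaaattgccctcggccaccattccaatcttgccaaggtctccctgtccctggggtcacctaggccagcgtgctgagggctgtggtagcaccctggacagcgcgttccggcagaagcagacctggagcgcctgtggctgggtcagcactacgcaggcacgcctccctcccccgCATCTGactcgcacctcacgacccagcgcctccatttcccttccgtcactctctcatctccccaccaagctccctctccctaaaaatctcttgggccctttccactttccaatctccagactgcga

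Slc32a1 held 2 matches, 233 and 37 bases before its start, and the other windows held 1 each. Of all 32851 promoter windows, 72.3% held at least 1 match, so that the presence of an E-box did not set these genes apart. The CAGCTG form was in none of the 4 windows shown and in 16.3% of all windows, and it occurred once in the window of Glra3. The GC content was 63.3% for Slc32a1, 61.3% for Gad2, 60% for Gad1 and 49.7% for Slc6a5, beside a median of 52.7% over all windows. RefSeq windows were matched for 9 of the 10 genes, and Slc6a5 had a second start with 2 matches.

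Levels across nucleus types are given as CPM of the summed UMIs of a mouse, as mean ± SD over mice. The types had been assigned from the same expression values, so these levels are a description without a test. The UMIs were counted over exons and introns, and a longer gene can gather more of them.

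Glra1 (chr11:55514238-55608198, minus strand), the alpha subunit of the adult spinal receptor, was highest in motor neurons, VE, VI and VM. It reached 340 ± 105 CPM in motor neurons, 320 ± 23.1 CPM in VE and 320 ± 42.8 CPM in VI (SD, n = 12). It was lower in the dorsal sub-types, with 254 ± 20.3 CPM in DI and 225 ± 14.2 CPM in DE, and lowest among neurons in VC, with 154 ± 29.8 CPM. Motor neurons, VE and VI differed by less than 1 SD. When every nucleus was thinned to 5000 UMIs, 83.6% of 67 motor neuron nuclei had a Glra1 UMI (exact 95% interval 72.5 to 91.5%). The share was 14.8% of 867 astrocyte nuclei and 5.75% of 348 endothelial nuclei, the type with the least Glra1. Intervals of this kind cover counting error only. Median depth before thinning was 53245 UMIs in motor neurons and 6963 UMIs in endothelial nuclei, and without thinning their shares were 100% and 9.98%.

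Glra2 (chrX:165129017-165327393, minus strand), the alpha subunit best known from the developing cord, and Glra3 (chr8:55940460-56130070, plus strand), the alpha subunit known from the superficial dorsal horn, showed another order. Glra2 was highest in ME at 122 ± 32.6 CPM, MI at 103 ± 28.3 CPM and VC at 97.4 ± 38.7 CPM, which overlapped, and was 12.9 ± 22.3 CPM in motor neurons, where 5 of 12 mice had no UMI. Glra3 was highest in DE at 202 ± 24.3 CPM, followed within 1 SD by ME and VC and then DI at 152 ± 21.7 CPM. It fell to 67.1 ± 19.4 CPM in VI and 19.0 ± 17.7 CPM in motor neurons. Motor neurons, VE, VI and VM, which held the most Glra1, were the neuron classes with the least Glra3.

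The 3 alpha subunits were compared per length of gene, since Glra1 spans 94.0 kb while Glra2 and Glra3 span 198 and 190 kb. Per 100 kb, Glra1 made up 95.6 ± 4.11% of the alpha-subunit signal in motor neurons, 87.3 ± 3.54% in VI and 83.7 ± 3.32% in VE. Its share was 64.8 ± 3.43% in DE, where Glra3 contributed 28.8 ± 2.73%, and 53.6 ± 9.46% in VC, where Glra3 contributed 30.4 ± 6.54% and Glra2 16.0 ± 5.77%. In ME and MI, Glra2 contributed 17.2 ± 5.59% and 14.8 ± 3.03%. Glra1 thus prevailed most in motor neurons and the ventral excitatory and inhibitory classes, and least in VC and ME. This rests on the division by gene span, since in CPM alone VC held 177 ± 42.1 of Glra3 and 154 ± 29.8 of Glra1.

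**Figure D1:**
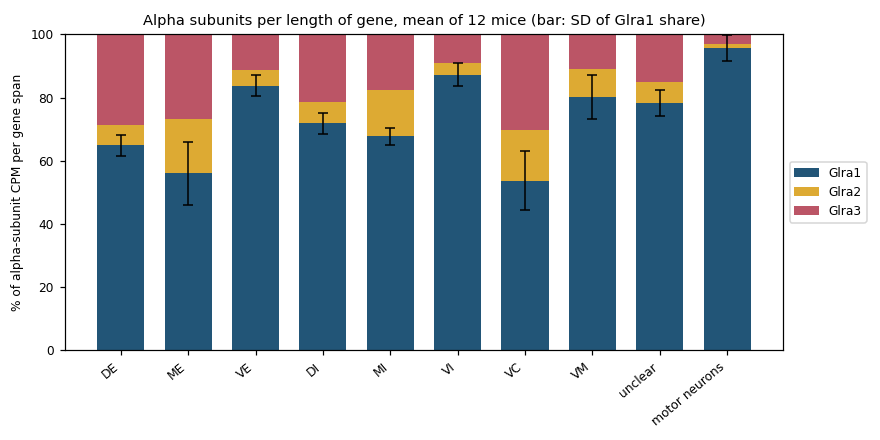
Share of alpha-subunit CPM per length of gene span (y axis, %) for Glra1, Glra2 and Glra3 in each neuron sub-type and motor neurons (x axis), as means of 12 mice, with the SD of the Glra1 share as a bar. Glra1 fills most of the column in motor neurons (95.6%) and least in VC (53.6%).

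Glrb (chr3:80843599-80913660, minus strand), which links the receptor to the scaffold, varied little among neurons. It lay between 149 ± 21.2 CPM in VC and 208 ± 46.2 CPM in ME, with VE at 206 ± 10.5 CPM and motor neurons at 178 ± 72.5 CPM. Non-neuronal nuclei also held it, with 146 ± 15.1 CPM in oligodendrocytes and 96.6 ± 27.5 CPM in astrocytes. Gphn (chr12:78226379-78684772, plus strand), which also serves molybdenum cofactor synthesis in all tissues, was 1642 ± 92.9 CPM in DE and 772 ± 122 CPM in endothelial cells. Astrocytes, with 1633 ± 104 CPM of Gphn, held as much as DE within 1 SD.

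Slc6a5 (chr7:49910146-49963856, plus strand) was highest among neurons in VI at 151 ± 26.5 CPM. In VI it was 119 to 182 CPM (median 157 CPM) in WT mice and 108 to 189 CPM (median 153 CPM) in SOD1G93A mice, and the groups overlapped almost fully. Unclear neurons, MI, VM and DI followed at 90.7 ± 17.4, 90.0 ± 20.0, 85.6 ± 45.6 and 84.5 ± 12.6 CPM and did not differ beyond their SD. VE held 48.5 ± 10.6 CPM, DE 13.4 ± 5.25 CPM and motor neurons 6.85 ± 5.99 CPM. Slc32a1 (chr2:158610767-158615748, plus strand) was 40.3 ± 19.3 CPM in VI, 37.5 ± 15.6 CPM in DI and 31.2 ± 10.4 CPM in MI, which overlapped, and 11.6 ± 3.77 CPM in VE.

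The GABA enzymes were ordered differently from the glycine transporter. Gad1 (chr2:70553072-70602014, plus strand) fell from 114 ± 20.5 CPM in DI to 66.0 ± 18.6 CPM in MI and 20.6 ± 5.47 CPM in VI, each step larger than 1 SD. Microglia, OPCs and astrocytes held 25.4 ± 9.32, 24.0 ± 19.8 and 23.9 ± 11.1 CPM of Gad1, so VI did not stand above them. Gad2 (chr2:22622205-22693874, plus strand) was highest in MI at 155 ± 20.0 CPM, then 107 ± 13.4 CPM in DI and 42.1 ± 12.7 CPM in VI. Dorsal and mid inhibitory neurons were thus richer in the GABA enzymes and ventral inhibitory neurons in Slc6a5.

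Slc6a9 (chr4:117834506-117875198, plus strand) was a glial gene. Astrocytes held 151 ± 24.3 CPM, the Schwann and meningeal class 83.4 ± 36.1 CPM and oligodendrocytes 58.0 ± 9.25 CPM. Microglia held 34.4 ± 10.0 CPM and OPCs 33.6 ± 19.6 CPM. The named neuron sub-types lay between 7.79 ± 4.46 CPM in MI and 16.9 ± 9.05 CPM in ME, and motor neurons held 19.4 ± 21.4 CPM. At 5000 UMIs, 53.9% of 867 astrocyte nuclei had a Slc6a9 UMI (50.5 to 57.2%), beside 4.31% of endothelial nuclei, and the inhibitory sub-types, at 3.41 to 5.30%, lay near that background.

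**Figure D2:**
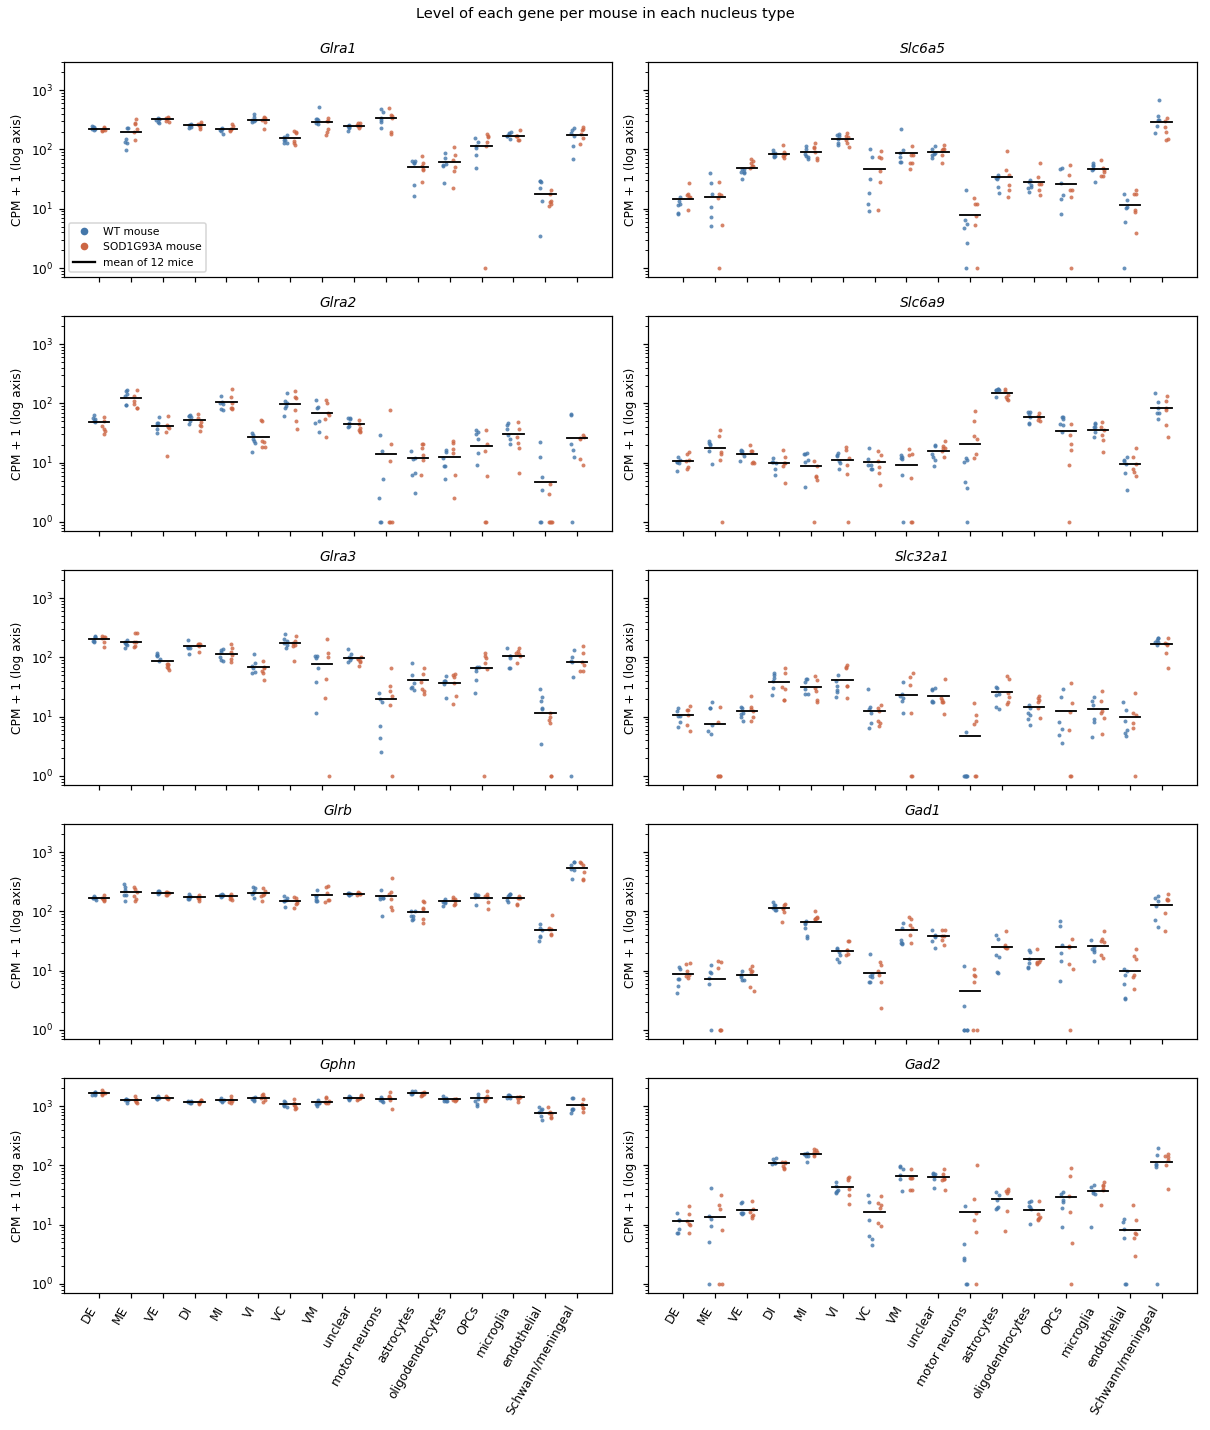
Level of each of the 10 genes (y axis, CPM + 1 on a log axis, the same in every panel) in 16 nucleus types (x axis), 1 point per mouse in blue for WT and orange for SOD1G93A, with the mean of 12 mice as a line. Glra1 is highest in motor neurons, VE and VI, Glra3 in DE, Gad2 in MI and Slc6a9 in astrocytes, and Gad1 is highest among neurons in DI. The Schwann and meningeal class stands above every neuron class for Slc6a5, Slc6a9, Slc32a1, Glrb and Gad1.

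Inhibitory transmitter genes were also found outside inhibitory neurons. The Schwann and meningeal class had 291 ± 147 CPM of Slc6a5, 168 ± 41.4 CPM of Slc32a1, 128 ± 51.4 CPM of Gad1 and 536 ± 135 CPM of Glrb. Compared with the neuron sub-type that held most of each gene, the level in this class was 4.93 times as high for Slc6a9, 4.16 times for Slc32a1, 2.58 times for Glrb, 1.93 times for Slc6a5 and 1.13 times for Gad1. It was lower for the other members, from 0.719 times for Gad2 to 0.204 times for Glra2. The markers listed for this class were not highest in it, and the class is called here by the authors' label only. These nuclei had a median of 1584 UMIs, against 23031 in VI, with 947 of 1031 under 5000 UMIs, and also carried the neuron list at 440 CPM, the oligodendrocyte list at 5157 CPM, the astrocyte list at 524 CPM and the excitatory neuron list (Slc17a6, Slc17a8, Tlx3, Lmx1b) at 262 CPM. The part of these other RNAs in the levels was not tested. Microglia held 171 ± 20.8 CPM of Glra1 and the neuron list at 518 CPM, beside 80.9 CPM of the microglial list.

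The genes most like each of 4 members across 16 types were sought by Pearson's r of the mean log2(CPM + 1) of WT mice, over 13088 genes. For Glra1 they were Phf24 (r = 0.984), Ryr3 (r = 0.979) and Galnt9 (r = 0.979), and for Slc6a9 they were F3 (r = 0.958), Slc25a18 (r = 0.956) and Errfi1 (r = 0.946). For Slc6a5 they were Lamp5 (r = 0.952), Tmem28 (r = 0.886) and Lhx5 (r = 0.877), and for Slc32a1 they were Lamp5 (r = 0.936), Sncb (r = 0.900) and Bri3bp (r = 0.894). Among the members, Slc6a5 had r = 0.897 with Slc32a1, r = 0.871 with Gad2 and r = 0.858 with Gad1. All 16 points came from the same pools, and the Schwann and meningeal class was high for all of these inhibitory genes.

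Glycine and GABA genes were then read in single nuclei of the inhibitory sub-types. Nuclei were thinned to 5000 UMIs, and shallower ones were left out, 94 in DI, 14 in MI and 5 in VI. The nuclei left in a mouse numbered as few as 52 in DI, 12 in MI and 4 in VI, each in an SOD1G93A mouse. In WT mice they numbered 87 to 252 in DI, 28 to 103 in MI and 21 to 95 in VI. In SOD1G93A mice they numbered 52 to 147, 12 to 49 and 4 to 55, so that shares in this genotype rest on fewer nuclei. In VI, 35.8 ± 9.65% of the nuclei of a mouse had Slc6a5 without Gad1 or Gad2, 11.5 ± 7.22% had both and 11.4 ± 7.15% had Gad1 or Gad2 alone (SD, n = 12). In DI, Gad1 or Gad2 alone was the main class at 42.5 ± 6.79%, with 18.2 ± 4.04% holding both and 13.1 ± 3.86% Slc6a5 alone. MI lay close to DI, with 36.3 ± 4.44%, 21.4 ± 9.43% and 10.98 ± 6.05% in the same order. None of these genes was seen in 26.2 ± 2.98% of DI, 31.3 ± 8.25% of MI and 41.4 ± 7.49% of VI nuclei.

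The background for such shares was read in cells not known to make these transmitters. Pooled over mice, Slc6a5 together with Gad1 or Gad2 was seen in 18.7% of 1495 DI nuclei (exact 95% interval 16.8 to 20.8%), in 1.08% of 1293 oligodendrocyte nuclei and in 0.721% of 2773 DE nuclei. It was also seen in 5.50% of 218 microglial nuclei and 41.7% of 84 Schwann and meningeal nuclei. In motor neurons it was seen in 0 of 67 nuclei after thinning, which allows up to 4.48% of nuclei with such UMIs at this depth by a floor of 3 counts (exact upper limit 5.36%), and in 10.4% without thinning. Slc6a5 itself was seen in 9.13% of oligodendrocyte, 10.1% of astrocyte, 11.7% of OPC and 17.4% of microglial nuclei (12.6 to 23.1% for microglia). It was seen in 4.89% of endothelial nuclei (2.87 to 7.71%). The 4.33% of DE nuclei with Slc6a5 was at or below each of these shares. The 15.5% of 1288 VE nuclei (13.5 to 17.5%) was above the endothelial, oligodendrocyte, astrocyte and OPC shares and below that of microglia, which carried the neuron list at 518 CPM, and its interval overlapped those of OPCs (6.98 to 18.1%) and microglia. Without thinning, both kinds of gene were seen in 42.7% of DI and 48.4% of VI nuclei, at median depths of 11763 and 23031 UMIs. After thinning, Gad1 or Gad2 alone was seen in 14.1% of 867 astrocyte nuclei (11.8 to 16.6%). The share of this class in VI, a mean of 11.4% over mice, was no higher than that pooled astrocyte share. The class leaves out nuclei that also had Slc6a5, which were more frequent in VI, where Slc6a5 alone made up 35.8% on average. The shares are thus not like for like, and this class in VI is not shown to exceed that background.

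The classes were compared between genotypes in 6 pairs of mice of the same sex and pool by a two-sided exact sign-flip test, whose smallest possible p is 0.03125. Over 12 shares, none passed an adjusted p of 0.05. DI nuclei without any of these genes were 25.1 ± 2.97% in WT and 27.3 ± 2.83% in SOD1G93A mice, higher in 6 of 6 pairs (exact p = 0.03125, adjusted p = 0.375). The share of VI nuclei with Slc6a5 alone was 33.8 ± 5.33% in WT and 37.7 ± 12.95% in SOD1G93A mice, higher in 3 of 6 pairs (exact p = 0.594, adjusted p = 0.875). The highest of these SOD1G93A shares, 57.1% and 50%, came from mice with 14 and 4 VI nuclei. A correction over 12 shares left little room at this size, since a single share at the smallest p has an adjusted p of 0.375.

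**Figure D3:**
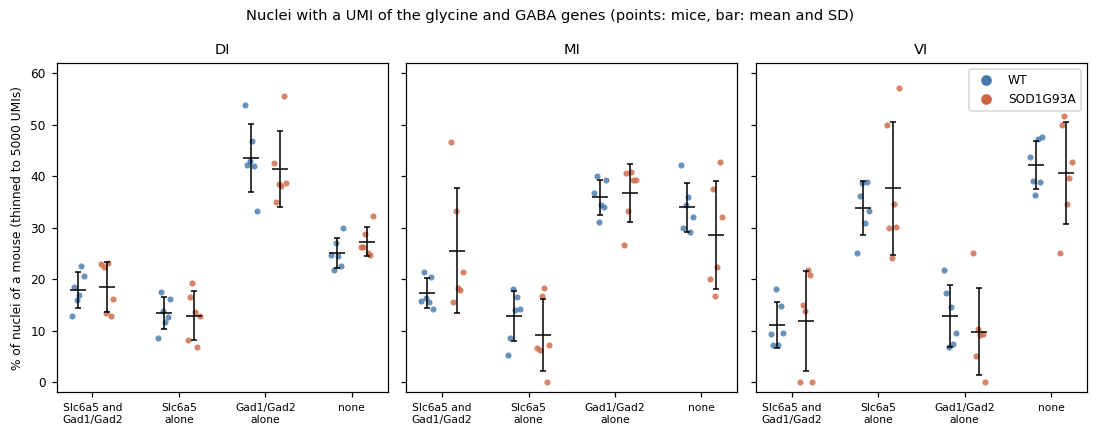
Share of the nuclei of a mouse (y axis, %) with UMIs of both Slc6a5 and Gad1 or Gad2, of either alone, or of none (x axis) after thinning to 5000 UMIs, in DI, MI and VI, 1 point per mouse with mean and SD by genotype. Gad1 or Gad2 alone leads in DI (42.5%) and Slc6a5 alone among the positive classes in VI (35.8%), and WT and SOD1G93A points overlap in each class.

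The share of DI, MI and VI among neurons with a named sub-type was compared between genotypes. A share cannot show whether the number of inhibitory nuclei captured differed, and that number was not tested. The share was 33.6 ± 2.56% in WT mice, from 29.8 to 37.4%, and 34.3 ± 2.63% in SOD1G93A mice, from 30.8 to 38.1%. The mean difference was 0.662 percentage points, higher in 3 of 6 pairs (two-sided exact sign-flip test, p = 0.812), and the groups overlapped. The sign rested on the female pair of pool A, since the difference was -0.868 percentage points without it.

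The central comparison was SOD1G93A against WT in each type, fitted with limma-voom across all genes on UMIs summed per mouse. Enough counts were present for 142 of 190 combinations of gene and type. None of 63 tests in the 10 cell types and none of 79 tests in the 9 sub-types had an adjusted p under 0.1. Over all genes, 0.568% of tests in cell types and 0.0252% in sub-types passed. At an unadjusted p under 0.05 there were 15 of 142 member tests, 8 higher and 7 lower, while 5.8% of tests of all genes did so. The edgeR quasi-likelihood test called 0 of 142, beside 0.19% of tests of all genes, and had 4 of 63 in cell types and 8 of 79 in sub-types at an unadjusted p under 0.05, beside 5.39% of all genes. DESeq2 called 1, Glra3 in VE, beside 0.263% of all genes. The 95% intervals of 64 of the 142 log2 differences lay within 0.5 in either direction, that is within 1.41-fold.

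The receptor on motor neurons showed no change that passed the test. Glra1 was 229 to 486 CPM (median 328 CPM) in WT motor neurons and 181 to 506 CPM (median 356 CPM) in SOD1G93A motor neurons. The ranges overlapped fully, and the lowest SOD1G93A value came from a mouse with 1 nucleus. The log2 difference was -0.13 with a 95% interval of -0.56 to 0.29 (SE 0.20, limma-voom adjusted p = 0.819), and Glra1 was higher in SOD1G93A mice in 4 of 6 pairs. Glrb in motor neurons averaged 164 CPM in WT and 193 CPM in SOD1G93A mice, and Gphn averaged 1280 and 1351 CPM. The fitted log2 differences had the opposite sign to these unweighted means, at -0.18 for Glrb (interval -0.62 to 0.26) and -0.11 for Gphn (-0.42 to 0.20), so that no direction is given for either gene.

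The transporters and enzymes in motor neurons had too few counts to enter the test. Slc6a9, with 57 UMIs in all, was 0 to 10.8 CPM (median 6.48 CPM) in WT and 11.1 to 72.3 CPM (median 25.5 CPM) in SOD1G93A motor neurons, without overlap and higher in 6 of 6 pairs. The highest value, 72.3 CPM, was 2 UMIs in a library of 27658 UMIs from 1 nucleus. When no filter on low counts was used, Slc6a9 was called with a log2 difference of 1.67 (interval 0.72 to 2.63, limma-voom adjusted p = 0.0438). Gad2, with 52 UMIs, and Slc32a1, with 14, were then called as well, at 2.40 (adjusted p = 0.000467) and 2.02 (adjusted p = 0.0391). For Gad2, 1 SOD1G93A mouse was at 98.6 CPM, while the others were at 0 to 25.8 CPM and WT mice at 0 to 19.5 CPM. In the same nuclei the astrocyte list summed to 2.79 to 34.6 CPM in WT and 0 to 32.4 CPM in SOD1G93A mice, the oligodendrocyte list to 52.6 to 686 and 81.5 to 527 CPM, and the excitatory neuron list to 0 to 17.3 and 0 to 75.7 CPM. The list of other inhibitory markers summed to 0 to 12.99 CPM in WT and 0 to 19.5 CPM in SOD1G93A mice (means 2.70 and 9.83 CPM), and the microglial list to 0 to 26.0 and 7.38 to 81.1 CPM. The part of such RNA in these values was not tested. No share of all genes is given for motor neurons without the filter, either called or without overlap. The calls and the lack of overlap are therefore not read as a result about these genes.

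Precision was higher in the large neuron classes. For all neurons together, the log2 difference was -0.0025 for Glra1 (-0.14 to 0.14), -0.05 for Glrb (-0.18 to 0.08) and 0.01 for Gphn (-0.13 to 0.14). It was -0.08 for Glra3 (-0.26 to 0.11) and -0.20 for Glra2 (-0.39 to 0.00057), with Glra2 lower in 6 of 6 pairs on the scaled values, from 54.4 to 48.4 CPM on average (limma-voom adjusted p = 1.00). Slc6a5 in VI differed by -0.02 on the log2 scale (-0.29 to 0.24), Gad2 in DI by -0.18 (-0.39 to 0.03) and Gad1 in DI by -0.16 (-0.37 to 0.04). Slc32a1 in VI, with 503 UMIs in all, differed by 0.43 (-0.0018 to 0.86) and was higher in SOD1G93A mice in 4 of 6 pairs.

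**Figure D4:**
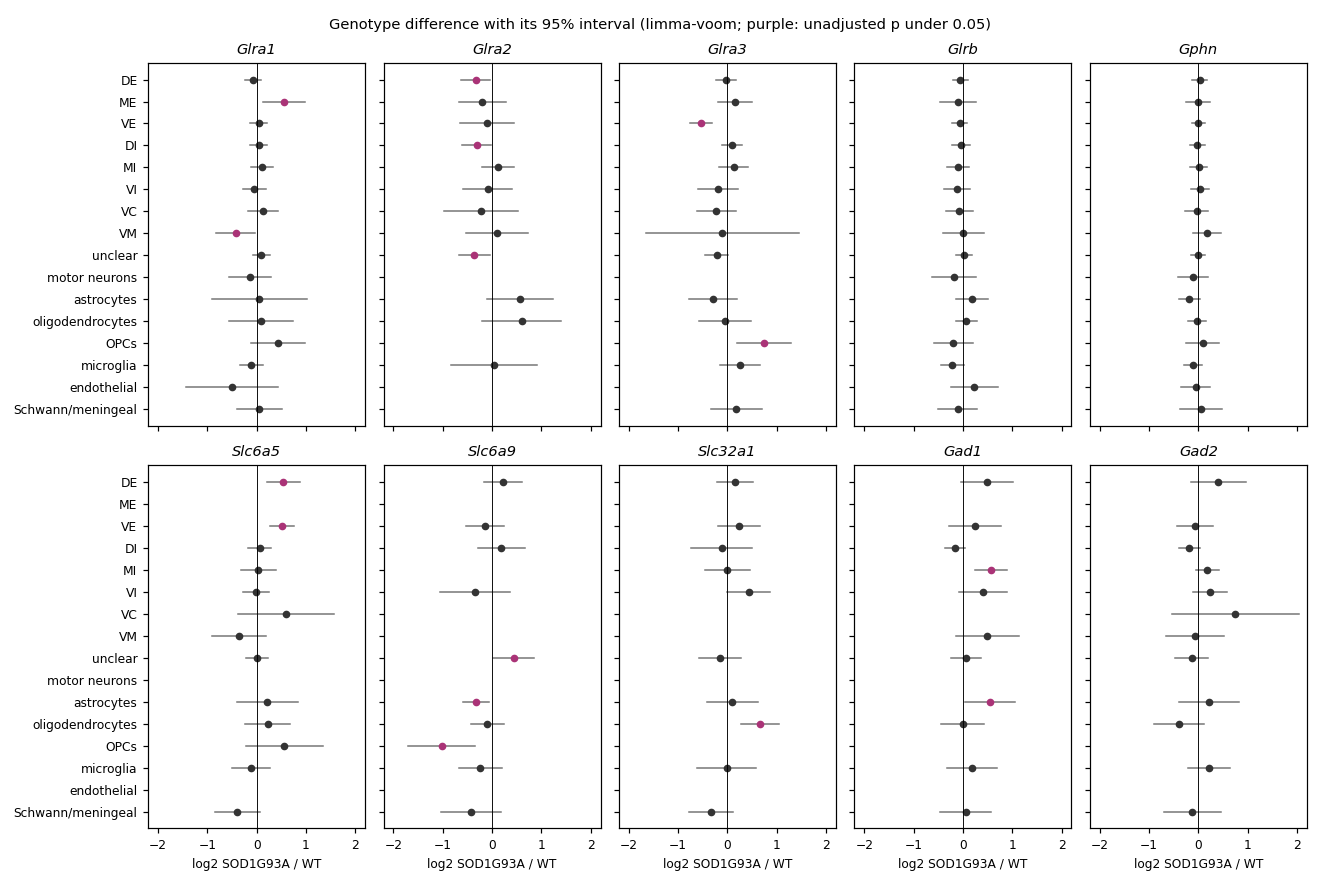
Difference between SOD1G93A and WT (x axis, log2, point with 95% interval from limma-voom) for each of the 10 genes in each type with enough counts (y axis), with an unadjusted p under 0.05 in purple. Intervals for Gphn and Glrb are narrow in most types and none of the differences has an adjusted p under 0.1, the largest excursion being Slc6a9 in OPCs at -1.02.

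In 3 of the 142 tests the mice of each genotype did not overlap, while 0.327% of tests of all genes behaved so. The first was Glra3 in VE, with 86.8 to 120 CPM (median 106 CPM) in WT mice and 60.9 to 77.1 CPM (median 70.6 CPM) in SOD1G93A mice. The log2 difference was -0.53 (SE 0.11, interval -0.75 to -0.31), lower in 6 of 6 pairs, with a limma-voom adjusted p of 0.16. Of all genes tested in VE, 0.00871% had an adjusted p under 0.1 and 0.157% did not overlap. DESeq2 gave an adjusted p of 0.0719, and the call was met in 3 of 18 alternatives. Leaving out 1 mouse at a time, the limma-voom adjusted p ranged from 0.0106 without male WT replicate 1 to 0.868 without female SOD1G93A replicate 3, and was 0.092 without female WT replicate 2. In DE and DI, where Glra3 was higher, its log2 difference was -0.03 and 0.09.

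The second was Slc6a5 in the same VE neurons, with 31.4 to 45.8 CPM (median 40.6 CPM) in WT mice and 48.0 to 68.4 CPM (median 55.3 CPM) in SOD1G93A mice. The log2 difference was 0.52 (SE 0.12, interval 0.27 to 0.77), higher in 6 of 6 pairs, and the limma-voom adjusted p was 0.439. The share of VE nuclei with a Slc6a5 UMI, at 15.5%, was above that of 4 non-neuronal types and below that of microglia and of the Schwann and meningeal class (56.0% of 84 nuclei). Its interval overlapped those of OPCs, which were among the 4, and of microglia. In DE, Slc6a5 was 7.22 to 14.6 CPM in WT and 8.40 to 26.3 CPM in SOD1G93A mice (log2 difference 0.54, adjusted p = 0.339), at a mean level below that of oligodendrocytes. Beside these values, the other inhibitory markers in VE (Pax2, Lhx1, Lhx5, Tfap2b, all detected) summed to 23.8 to 48.7 CPM in WT and 34.0 to 63.4 CPM in SOD1G93A mice. The excitatory list summed to 103 to 128 CPM in WT and 97.4 to 136 CPM in SOD1G93A mice, and the part of such nuclei in either result was not tested.

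The third was Gad1 in MI, with 34.2 to 68.8 CPM (median 55.3 CPM) in WT mice and 71.8 to 101 CPM (median 76.0 CPM) in SOD1G93A mice. The log2 difference was 0.57 (SE 0.16, interval 0.24 to 0.90), higher in 6 of 6 pairs, with a limma-voom adjusted p of 0.764, and 0.255% of genes tested in MI did not overlap. Gad2 in MI, the other GABA enzyme, differed by 0.18 (-0.06 to 0.42). In DI, which holds more Gad1, the difference was of the other sign. Over the 12 types and sub-types tested, which share nuclei, the Gad1 difference was positive in 10 and negative in 2.

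Glra2 was lower at an unadjusted p under 0.05 in DE, DI and unclear neurons, by 0.33, 0.31 and 0.36 on the log2 scale, with limma-voom adjusted p of 0.66, 1.00 and 0.83. In DE it was 48.0 to 63.5 CPM in WT and 29.3 to 57.0 CPM in SOD1G93A mice, and the ranges overlapped. Glra1 had differences of opposite sign at that threshold in small classes, 0.56 in ME (interval 0.14 to 0.98, adjusted p = 0.994) and -0.43 in VM (interval -0.81 to -0.04, adjusted p = 0.998), both by limma-voom. In ME it was 95.6 to 231 CPM in WT and 143 to 324 CPM in SOD1G93A mice, and in VM 270 to 512 and 178 to 335 CPM, and the ranges overlapped in both. Also at that threshold were values higher in SOD1G93A mice, Glra3 in OPCs by 0.74, Slc6a9 in unclear neurons by 0.44 and Gad1 in astrocytes by 0.56, with limma-voom adjusted p of 0.601, 0.884 and 0.308.

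Among glia, Slc6a9 in astrocytes was 130 to 175 CPM (median 168 CPM) in WT and 112 to 176 CPM (median 133 CPM) in SOD1G93A mice. It was lower in 6 of 6 pairs on the scaled values, with a log2 difference of -0.33 (SE 0.12, interval -0.58 to -0.07) and a limma-voom adjusted p of 0.227. In OPCs, where 132 UMIs were counted in all, it was 31.5 to 58.1 CPM in WT and 0 to 44.3 CPM in SOD1G93A mice (log2 difference -1.02, adjusted p = 0.53). Slc32a1 in oligodendrocytes was 6.11 to 14.5 CPM in WT and 8.52 to 21.4 CPM in SOD1G93A mice (log2 difference 0.66, adjusted p = 0.719).

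**Figure D5:**
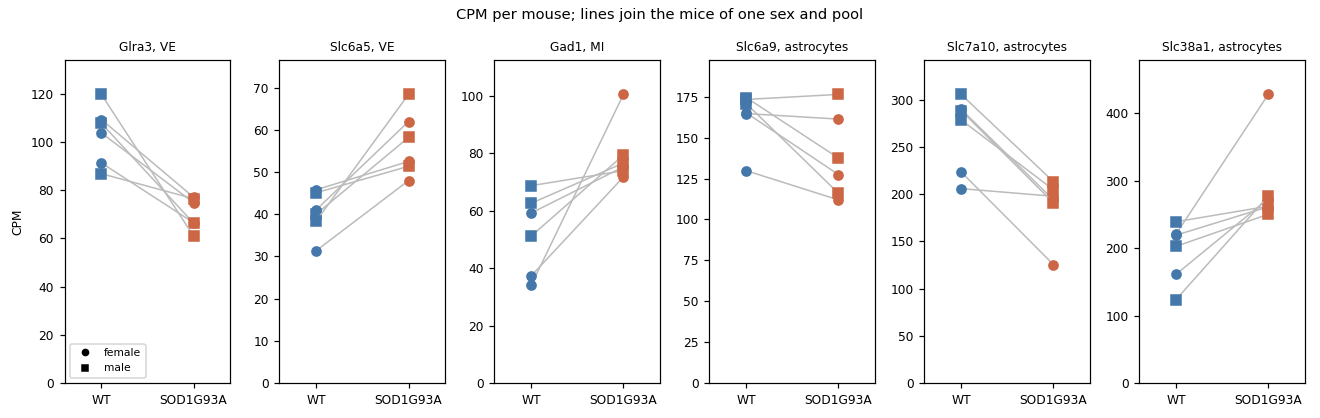
CPM per mouse (y axis, from 0) in WT and SOD1G93A mice (x axis), with a line joining the mice of one sex and pool, circles for females and squares for males, for Glra3 and Slc6a5 in VE, Gad1 in MI, and Slc6a9, Slc7a10 and Slc38a1 in astrocytes. Lines for Glra3 in VE all go down, from 86.8 to 120 CPM down to 60.9 to 77.1 CPM, and those for Slc6a5 in VE all go up.

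The wider pathway was read in 26 genes of inhibitory synapse scaffolds, chloride transport and the transport of GABA, serine, glycine and glutamine. Glycine synthesis and breakdown, GABA breakdown and a further glycine receptor subunit were also on the list. Of the 26 genes, Insyn1 and Insyn2a were found under the older symbols 6030419C18Rik and Fam196a, and 25 had enough counts in at least 1 type. In 262 tests, 3 had an adjusted p under 0.1, all in astrocytes, while 0.285% of tests of all genes over the 19 types and 2.29% of genes in astrocytes did so. The list was chosen with earlier results of these data known, so the shares over all genes are not an independent comparison. A further view at an unadjusted p under 0.05 gave 12 higher and 13 lower, 25 of 262 tests beside 5.8% of tests of all genes, and the median log2 difference over the 262 tests was 0.0284.

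Slc7a10 (Asc-1), a transporter that carries glycine and D-serine, fell in SOD1G93A astrocytes. It was 206 to 306 CPM (median 284 CPM) in WT and 126 to 213 CPM (median 196 CPM) in SOD1G93A mice, overlapping in part. The log2 difference was -0.57 (SE 0.12, interval -0.81 to -0.32), lower in 6 of 6 pairs, with a limma-voom adjusted p of 0.0136. The call held under each of the 18 alternatives tried. Slc38a1 (SNAT1), a sodium-coupled transporter of glutamine and other neutral amino acids, was 124 to 239 CPM (median 211 CPM) in WT and 250 to 428 CPM (median 268 CPM) in SOD1G93A mice. It rose by 0.51 on the log2 scale (SE 0.13, adjusted p = 0.0524), higher in 6 of 6 pairs, and the call held under 12 of 18 alternatives. Gcsh, the H protein of the glycine cleavage system, was 5.15 to 26.7 CPM in WT and 20.0 to 47.5 CPM in SOD1G93A mice. It rose by 0.82 on the log2 scale (SE 0.22, adjusted p = 0.0625), higher in 5 of 6 pairs, from 248 UMIs in all, and this call held under 5 of 16 alternatives that gave a value.

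Of the 19 pathway genes tested in astrocytes, these 3 passed. In the same astrocytes Gfap and Aqp4 rose by 1.116 and 0.80 on the log2 scale, and the 3 listed astrocyte markers summed to 867 to 1122 CPM in WT and 1672 to 2225 CPM in SOD1G93A mice. Mbp, a myelin gene, rose by 0.50 there as well, and the oligodendrocyte list summed to 1005 to 1522 CPM in WT and 1405 to 2764 CPM in SOD1G93A mice. The neuron list summed to 103 to 209 CPM in WT and 143 to 244 CPM in SOD1G93A mice. Their part in the astrocyte results was not tested.

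Females and males, and the genotype difference between them, were compared in the same fits. No member had an adjusted p under 0.1 for sex, with 8 of 142 tests at an unadjusted p under 0.05, and limma-voom passed 0.125% of tests of all genes at the first and 5.13% at the second threshold. For the interaction there were again 0 calls and 11 of 142 tests at an unadjusted p under 0.05, beside 0.0436% and 3.62% over all genes. The lowest p was that of Gad1 in astrocytes, with a male minus female log2 difference of 1.83 (interval 0.81 to 2.86, limma-voom adjusted p = 1.00). Gad1 was 8.25 to 16.1 CPM in WT and 23.7 to 45.6 CPM in SOD1G93A males, and 17.2 to 38.3 CPM in WT and 22.7 to 23.8 CPM in SOD1G93A females, from 231 UMIs over all mice. Slc6a5 in VI was lower in females than in males by 0.38 on the log2 scale (interval -0.65 to -0.12, limma-voom adjusted p = 1.00).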

How the data were processed

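Lumbar spinal cord nuclei of 12 mice were sequenced on the 10x platform. Per the labels and the study's methods, the authors used bcl2fastq 2.20.0.422, STAR 2.5.1b and Cell Ranger 3.1 with an mm10 pre-mRNA reference that counts introns, and then Seurat (version 4.0.3) to assign hashtags and remove hashtag doublets and negative nuclei; no further doublet caller was run here. The deposited raw UMI counts and the authors' cell annotation were used, and the deposited normalized table was not. Counts were summed per mouse and type, filtered (edgeR 4.0.16 filterByExpr, minimum count 10), scaled by TMMwsp and fitted with limma 3.58.1 voom on sex-by-genotype group and pool, with robust moderation, in R 4.3.3. Benjamini-Hochberg adjustment ran over all genes of a type, with calls at 0.1. DESeq2 1.42.0, edgeR, other filters, no pool term and leaving out each mouse were alternatives. The code was tested on simulated data.

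Gene positions are GENCODE vM21 on GRCm38. Shares were compared by exact sign flips over 6 pairs. All 10 genes were named, with pathway genes only if called, the fixed markers and the 3 genes most alike. Members and lists were chosen with earlier results of these data known. Pools come from the labels, and the pool is a term in the study's own design; deviations of same-pool mice had a mean correlation of 0.274 in neurons and 0.0561 in astrocytes. Mice were separate animals. Pool A, B and C are replicates 1, 2 and 3 of each group. The marker levels of the Schwann and meningeal class are not reported here.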

Additional observations from a re-analysis of the deposited data

Results flagged for a closer look

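Of 62 groups of 6 mice checked for a single mouse far from the others, 4 had one, and chance gives about 1 in 20. Slc6a9 in astrocytes was 129.8 CPM in female WT replicate 1, while the other WT mice had 164.7 to 174.5 CPM. Gad1 in MI was 100.6 CPM in female SOD1G93A replicate 1, from 15 nuclei, while the other SOD1G93A mice had 71.8 to 79.5 CPM. Gad1 in astrocytes was 45.6 CPM in male SOD1G93A replicate 1, while the others had 22.7 to 26.3 CPM. The share of DI nuclei with Gad1 or Gad2 alone was 55.6% in male SOD1G93A replicate 2, while the others had 35.0 to 42.6%.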

How the results depend on the processing

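Of the values recomputed under other settings, 329 stayed the same, 17 lost a call, 3 gained one, 4 changed sign and 10 moved otherwise. For a difference, the same meant its direction and its side of the threshold. For a level it meant a shift under 1 SD. For a count of calls it meant a count near the main one, so that a single call could still be lost or gained. Without a filter on low counts, 3 members were called in cell types (Gad2, Slc32a1 and Slc6a9, all in motor neurons). No share of all genes called in that setting is given, so these calls are not read as a result about the members. Leaving out 1 mouse gave 0 to 1 members called in cell types, the 1 being Slc6a9 in motor neurons without female WT replicate 2, where it passed the filter on low counts through SOD1G93A mice alone and is not read as a gained call. In sub-types DESeq2 called 1 member, Glra3 in VE, and leaving out 1 mouse gave 0 to 1, the same gene and type without female WT replicate 2 or male WT replicate 1. Without the replicate block (no pool term), 1 pathway gene was called in place of 3, Slc7a10, and no member, so the block changed no other count of calls. Leaving out 1 mouse gave 1 to 4 pathway calls, with 1 (Slc7a10) without female WT replicate 3, male WT replicate 3, male SOD1G93A replicate 1 or male SOD1G93A replicate 3. The log2 difference of Slc6a5 in VI ranged from -0.15 to 0.098 when 1 mouse was left out, with 0.086, 0.098 and 0.0019 where it changed sign. The difference in the inhibitory share ranged from -0.868 to 1.61 percentage points when 1 pair was left out, negative without the female pair of pool A. The causes of these changes were not tested. Few nuclei limit precision in fibroblasts (46), motor neurons (67) and ependymal cells (93), and in VM and OPCs, with as few as 1 and 2 nuclei in a mouse.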
